A study of Mus musculus with 8 samples.

Results

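A set of 35 genes, encoding the kinetochore, the centromeric chromatin below it and the chromosomal passenger complex, was compared between wild-type and Dicer-deficient mouse oocytes. The genes were listed by symbol, and each was read on its brightest probe set with that symbol alone. All 35 were measured, among 18193 genes in all. They lie on 17 chromosomes, with at most 4 on any of them.

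The oocytes were fully grown and still held the germinal vesicle, the nucleus of an oocyte arrested before its meiotic divisions. They came from females of 129/C57BL6 background primed with eCG, the gonadotropin that makes follicles grow, and cumulus cells had been removed by pipetting. Both genotypes were handled alike: 4 mice of wild type and 4 with the Dicer knockout label gave 20 oocytes each, and the RNA of each pool of oocytes, after 2 rounds of amplification, went onto an Affymetrix mouse array of its own. The labels give neither the age of the mice nor the deleted exons or the Cre line behind the knockout. Dicer is the nuclease that makes microRNAs and endogenous short interfering RNAs, and oocytes that lack it are known to form disordered spindles with misaligned chromosomes.

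The kinetochore is the protein plate that ties a chromosome to spindle microtubules. CENP-A nucleosomes mark the centromere and carry an inner layer of CENP proteins, on which the outer layer, made of the Mis12 and Ndc80 complexes and Knl1, is built. The fibrous corona outside it holds motors and the RZZ complex, which recruits the spindle checkpoint, and the chromosomal passenger complex corrects wrong attachments through its aurora kinase. A growing oocyte stores these transcripts before meiosis resumes, and its spindle then forms without centrioles.

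Array medians lay between 6.35 and 6.43 on the log2 scale. Over all probe sets, which do not count as replicates, the correlation was 0.9915 to 0.9947 between arrays of a genotype and 0.9797 to 0.9865 across genotypes. Wild-type array 1 stood apart in one respect: of 494 genes at least 2-fold higher in knockout when it was left out, it exceeded the other wild-type arrays in 75.7%. Wild-type arrays 2 to 4, treated the same way, did so in 10.2% to 14.5% of such genes. The defining oocyte genes were bright: Zp3, a zona pellucida protein, read 14.39 ± 0.0647 in wild type, against 14.38 ± 0.0656 in knockout (n = 4 and 4, SD). Of 11 oocyte markers, 4 fell in knockout (Mos, Zar1, Ooep and Figla) and 0 rose, and all 11 differences were negative. The 4 are 36.4% of these markers, where 12.8% of all genes fell. The summed linear signal of the 11 was 163908 to 171643 in wild type and 153325 to 163075 in knockout, without overlap.

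Of the 35 genes, 7 were lower and 3 higher in knockout oocytes (limma, Benjamini-Hochberg adjusted p under 0.05, the threshold behind every "rose" and "fell" here). That is 28.6% of the members, against 21% of all genes. Lower calls made up 20% of members against 12.8% of all genes, and higher calls 8.57% against 8.18%. With probe sets of a mean under 5 left out, the members stayed at 7 lower and 3 higher. Of the 16003 genes then left, 14.8% were lower and 9.33% higher, so part of the gap to all genes goes with dim genes. The median log2 difference, knockout minus wild type, was -0.11 over the members and 0.0027 over all genes, and 23 members had a negative difference. In all 10 genes that passed, no knockout value overlapped the wild-type values. The same held for 12 of the 13 other kinetochore genes that passed (below), so it is not separate support for the calls. Counting genes that missed the threshold, groups did not overlap in 16 members (45.7%), against 26.2% of all genes. Without wild-type array 1, 6 members were lower and 3 higher, where 10.6% of all genes were lower and 7.68% higher.

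**Figure D1:**
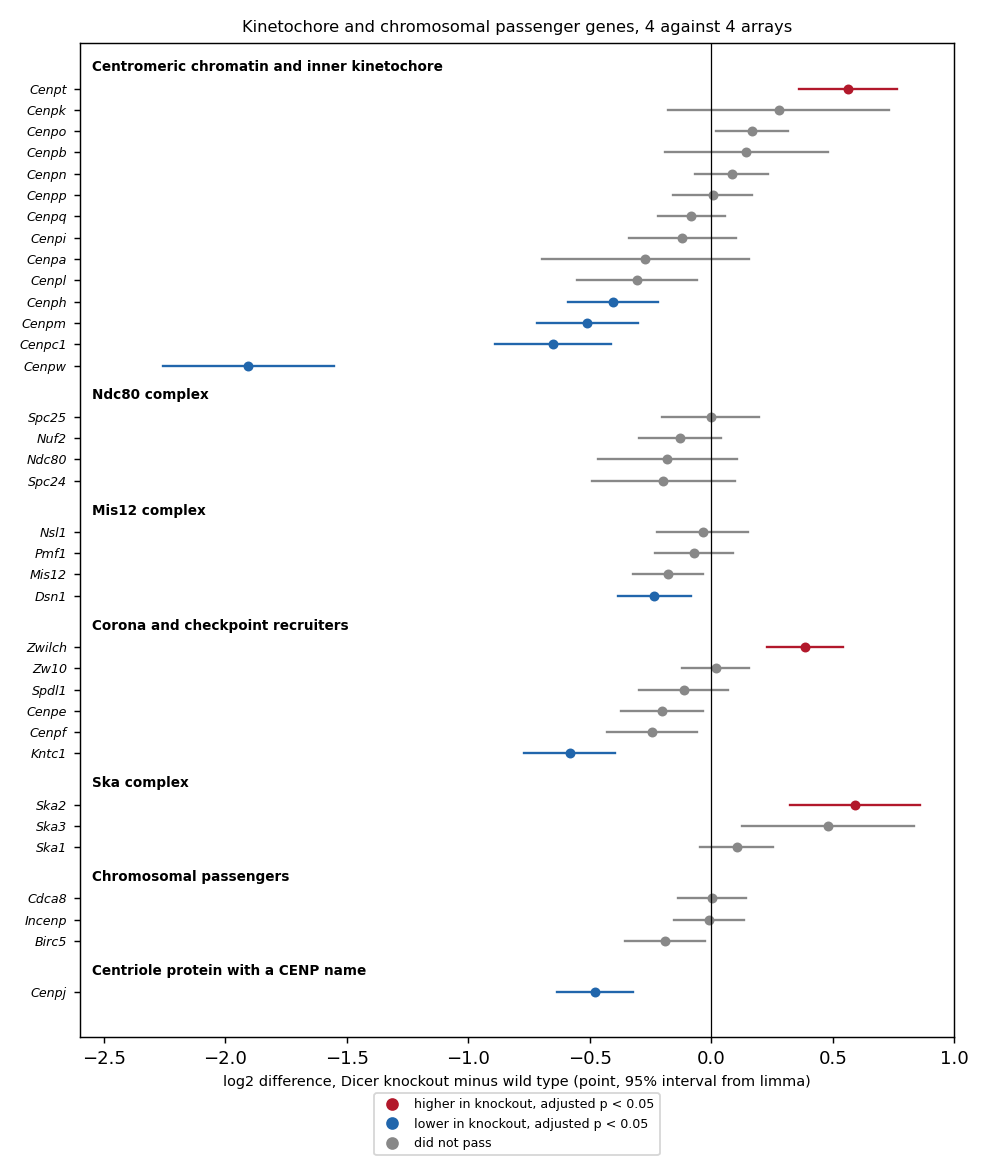
Log2 difference (knockout minus wild type) of each of the 35 genes with its 95% interval from limma, grouped by role. Cenpw lies farthest from 0 at -1.90, Ska2 is the highest at 0.59, and none of the Ndc80 complex or chromosomal passenger genes passed the threshold.

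Transcripts that mark other cells of the follicle differed with genotype as well. Of 15 measured cumulus and granulosa cell markers, 9 fell (60%, against 12.8% of all genes) and 0 rose. Their summed linear signal was 8352 to 12481 in wild type and 5395 to 7121 in knockout, so the groups did not overlap. Of the 6 that did not pass, Inhba differed by -0.67 and Amhr2 by -0.34. Amh, Foxl2, Kitl and Star differed by -0.02, -0.0094, -0.09 and -0.09. In these bulk samples, fewer cells of a type and less RNA per cell cannot be told apart, and which cells a transcript came from was not measured. Of 6 markers of dividing cells, Top2a fell, the other 5 did not pass, and the summed signals overlapped (40126 to 42221 and 39224 to 41202). All 6 were bright, with wild-type means of 11.58 (Top2a) to 13.23 (Mcm5), and their sum exceeded that of the cumulus and granulosa markers on every array. They cannot be read as a measure of dividing follicle cells, because the cells that held these transcripts were not identified. Of 12 genes that mark theca cells, stroma, vessels or blood, Cd68 rose (8.33%, against 8.18% of all genes) and Tek and Kdr fell (16.7%, against 12.8%). The summed signals of the 12, 1512 to 1652 in wild type and 1368 to 1510 in knockout, did not overlap. Cdh5, Ptprc, Hba-a1 and Pdgfra read below the array median on every array. The log2 scale has no 0, so no marker can be read as absent. The part of these cells in the results below was not tested.

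Among the 14 genes of centromeric chromatin and the inner kinetochore, 4 fell, 1 rose and 9 did not pass. The largest difference of all members was that of Cenpw, a small histone-fold protein that pairs with CENP-T on centromeric DNA. Cenpw read 9.77, 9.73, 10.11 and 10.03 on wild-type arrays 1 to 4 and 7.93, 8.12, 8.36 and 7.61 on knockout arrays 1 to 4. Every knockout array lay more than 1 log2 unit below every wild-type array. The difference was -1.90 ± 0.157 (SE), which leaves 26.7% of the wild-type signal (adjusted p = 6.68e-05). The other Cenpw probe set fell too, from 8.79 ± 0.168 to 7.69 ± 0.0771 (n = 4 and 4, SD), a difference of -1.09 (adjusted p = 8.43e-05).

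Cenpt, the partner of Cenpw and one of the inner proteins that reach out to the Ndc80 complex, changed in the opposite direction. It read 11.21, 10.94, 11.16 and 11.13 in wild type, against 11.54, 11.80, 11.61 and 11.76 in knockout, with no overlap. The rise was 0.56 ± 0.0895 (SE), or 1.48-fold (adjusted p = 0.00242). The remaining partners of this histone-fold tetramer, Cenps and Cenpx, are not among the 35. Cenps fell by 0.29 (adjusted p = 0.0405), a call that ended when any single array was left out, at adjusted p up to 0.0913. Cenpx read 10.72 ± 0.0805 and 10.87 ± 0.206 (adjusted p = 0.396).

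Cenpc1, the protein that links CENP-A nucleosomes to the Mis12 complex, fell. Its wild-type values were 10.40, 10.02, 10.25 and 10.19 and its knockout values 9.64, 9.33, 9.68 and 9.59. Knockout array 2 was the lowest of all, and the lowest wild-type array stayed above the highest knockout array. The difference was -0.65 ± 0.106 (SE), 1.57-fold lower (adjusted p = 0.00275). Cenpa, the centromeric histone H3 variant itself, had a wide spread within genotypes: 11.54, 11.05, 11.12 and 11.28 in wild type, against 11.27, 10.49, 10.81 and 11.34 in knockout. The groups overlapped, and the interval of the difference ran from -0.70 to 0.15 (adjusted p = 0.4). Cenpb, which binds a motif in the satellite repeats, read 7.25 ± 0.197 and 7.40 ± 0.283 (n = 4 and 4, SD) and did not pass.

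Of the CENP-H/I/K/M group, which sits on CENP-C and stabilises the inner layer, 2 of 4 genes fell, and the difference between those and the other 2 was not tested. Cenpm read 11.38, 11.09, 11.47 and 11.25 in wild type, against 10.89, 10.78, 10.76 and 10.72 in knockout, a difference of -0.51 ± 0.0923 (SE, adjusted p = 0.00485). Cenph read 9.98, 9.97, 9.85 and 10.13 against 9.61, 9.56, 9.45 and 9.68, a difference of -0.41 ± 0.0829 (adjusted p = 0.00912). Both genes were lower on every knockout array than on any wild-type array. Cenpi differed by -0.12 (interval -0.34 to 0.10), and Cenpk by 0.28 with an interval of -0.18 to 0.73. Cenpk varied within genotypes much as Cenpa did: knockout arrays 1 and 4 read 12.16 and 12.08, arrays 2 and 3 read 11.51 and 11.61, and the wild-type arrays spanned 11.08 to 11.94.

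The other inner kinetochore members showed small differences that did not pass. Cenpn, which reads the CENP-A nucleosome, differed by 0.08 (interval -0.06 to 0.23), and its partner Cenpl by -0.30 (interval -0.55 to -0.06, adjusted p = 0.096). Of the CENP-O group, Cenpo differed by 0.17, Cenpp by 0.01 and Cenpq by -0.08. Their intervals reached no farther than -0.22 and 0.31, so a change of 0.5 log2 in either direction lies outside them. Cenpo and Cenpl had groups that did not overlap, although neither passed (adjusted p = 0.127 for Cenpo).

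**Figure D2:**
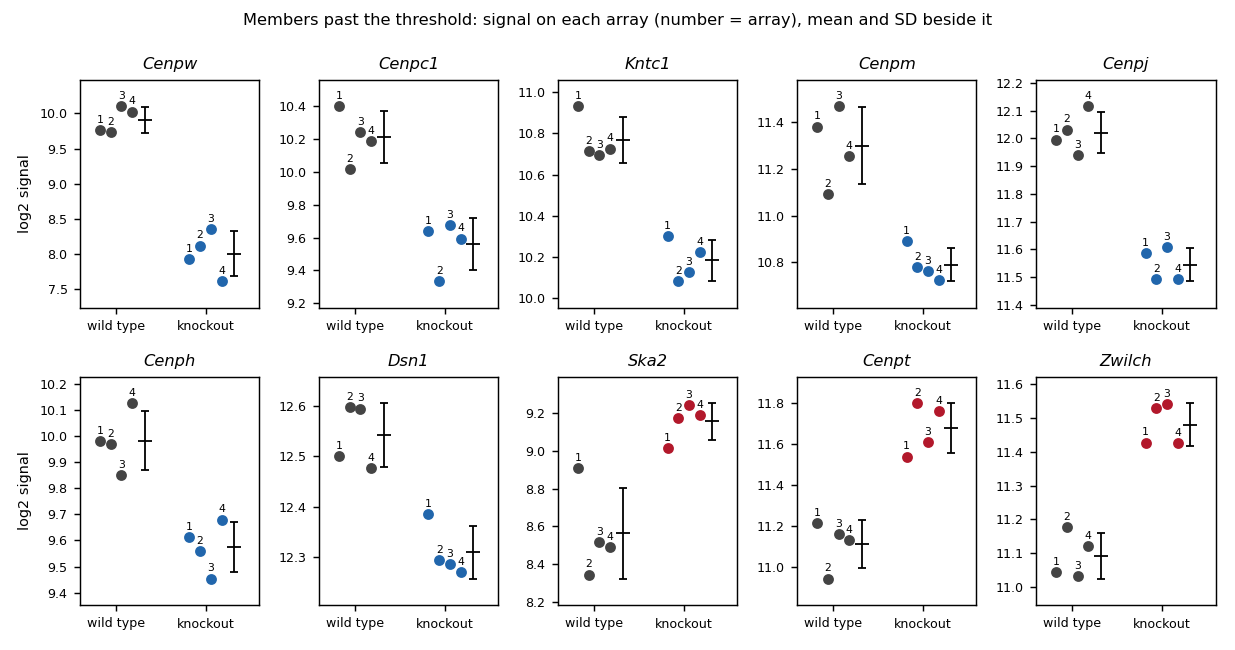
Log2 signal of the 10 members past the threshold on each array, with wild type in grey and knockout in blue (lower) or red (higher), the array number above each point and the mean ± SD (n = 4) beside the points; each panel has its own vertical range. In all 10 panels the groups do not overlap, and in Ska2 wild-type array 1, at 8.91, comes nearest to the knockout arrays.

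Of the 8 genes of the Ndc80 and Mis12 complexes, 1 fell and 0 rose, with 2 at an unadjusted p under 0.05 in limma. The Ndc80 complex is the rod that grips the microtubule, and 0 of its 4 genes passed (limma, and 0 at an unadjusted p under 0.05). Ndc80 read 11.47 ± 0.238 in wild type, against 11.29 ± 0.159 in knockout, Nuf2 12.74 ± 0.0942 and 12.61 ± 0.0740, Spc24 9.60 ± 0.265 and 9.41 ± 0.130, and Spc25 12.50 ± 0.112 and 12.50 ± 0.123 (n = 4 and 4, SD). The intervals of the 4 differences together spanned -0.49 to 0.20, so a rise or fall of 0.5 log2 lies outside each of them. Of the Mis12 complex, which joins the inner to the outer layer, Dsn1 fell. Dsn1 read 12.50, 12.60, 12.59 and 12.48 in wild type, against 12.39, 12.29, 12.29 and 12.27 in knockout, a difference of -0.23 ± 0.0672 (SE, adjusted p = 0.0425). The groups were close but apart, and the call ended without any single array (wild-type arrays 1 to 4 or knockout arrays 1 to 4), at adjusted p up to 0.108. Mis12 differed by -0.18 (adjusted p = 0.0924), Pmf1 by -0.07 and Nsl1 by -0.03.

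Of 6 genes of the corona, 1 fell and 1 rose, and these changes ran in opposite directions within the RZZ complex (Rod, Zwilch and Zw10), which brings dynein and the checkpoint proteins to unattached kinetochores. Kntc1, the gene of its largest subunit, Rod, read 10.93, 10.71, 10.69 and 10.73 in wild type, against 10.30, 10.08, 10.13 and 10.22 in knockout. Wild-type array 1 was the highest, and all knockout arrays lay below all wild-type arrays. The difference was -0.58 ± 0.0835 (SE), 66.8% of the wild-type signal (adjusted p = 0.00139), and -0.53 without wild-type array 1. Zwilch read 11.04, 11.18, 11.03 and 11.12 in wild type, against 11.43, 11.53, 11.54 and 11.42 in knockout. It rose by 0.39 ± 0.0694 (SE), or 1.31-fold (adjusted p = 0.00468). Zw10 read 12.32 ± 0.0249 and 12.34 ± 0.0346 (n = 4 and 4, SD), with an interval of -0.12 to 0.16.

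Spdl1, the adaptor Spindly that RZZ recruits, differed by -0.11 (interval -0.30 to 0.07). The kinesin Cenpe and the large coiled-coil protein Cenpf had groups that did not overlap and missed the threshold. Cenpe read 12.49 ± 0.0519 in wild type, against 12.29 ± 0.106 in knockout (adjusted p = 0.104), and Cenpf 13.27 ± 0.107 and 13.03 ± 0.101 (adjusted p = 0.0784, and a difference of -0.19 without wild-type array 1). A dimmer probe set of Cenpf fell, by 0.43 (adjusted p = 0.0295), while its dimmest one differed by -0.03.

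The Ska complex holds kinetochores on microtubule ends together with Ndc80, and each of its 3 genes had a positive difference. Ska2 read 8.91, 8.34, 8.52 and 8.49 in wild type, against 9.02, 9.17, 9.24 and 9.19 in knockout. Wild-type array 1 lay nearest to the knockout arrays, but no values overlapped. The rise was 0.59 ± 0.119 (SE), or 1.51-fold (adjusted p = 0.00833), and 0.71 without wild-type array 1. The second probe set of Ska2 did not follow: it read 8.47 ± 0.126 and 8.27 ± 0.218 (n = 4 and 4, SD, adjusted p = 0.317), and the mean of both gave 0.20 (adjusted p = 0.161). Ska3 read 9.71, 9.62, 9.65 and 10.13 in wild type, against 10.06, 10.67, 10.17 and 10.13 in knockout, overlapped through wild-type array 4, and missed the threshold (difference 0.48, adjusted p = 0.0689). Ska1 differed by 0.11 on its brightest probe set (interval -0.04 to 0.26), and its dimmest one fell by 0.35 (adjusted p = 0.0248).

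None of the 3 chromosomal passenger genes passed in limma, and Birc5 alone had an unadjusted p under 0.05. Incenp, the scaffold, read 13.58 ± 0.0575 in wild type, against 13.57 ± 0.0290 in knockout, with an interval of -0.15 to 0.13. Cdca8 (Borealin), which brings the complex to the centromere, read 13.80 ± 0.0429 and 13.81 ± 0.0371, with an interval of -0.14 to 0.14. Birc5 (Survivin), which binds the phosphorylated histone tail, read 13.49, 13.31, 13.27 and 13.39 in wild type, against 13.22, 13.21, 13.09 and 13.19 in knockout. Its groups did not overlap, and its difference of -0.19 missed the threshold (adjusted p = 0.12).

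Cenpj carries a CENP name but encodes a centriole protein that regulates microtubule growth. It read 12.00, 12.03, 11.94 and 12.12 in wild type, against 11.59, 11.49, 11.61 and 11.49 in knockout. The groups stood well apart, and the difference was -0.48 ± 0.0700 (SE), 1.39-fold lower (adjusted p = 0.00158). It has 1 probe set, as do 18 of the 35 genes.

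Where a gene has several probe sets, they did not always move together. The 17 genes with more than 1 probe set hold 32 besides the brightest ones, and 3 of these 32 passed, those of Cenpw, Cenpf and Ska1, all lower. On brightest probe sets, 21% of all genes passed, but the share among the dimmer probe sets of all genes, which would be the like comparison, was not computed. Several of the 32 lay below every array median (6.35 to 6.43), where differences tend to be compressed. Examples are the dimmer ones of Zw10, with genotype means of 3.13 to 4.78, and the dimmest of Cenpk, at 3.23 in wild type. Of these 17 genes, Cenpw was the only one whose probe sets all passed. The 5 probe sets of Incenp differed by -0.30 to 0.0027, and none passed.

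**Figure D3:**
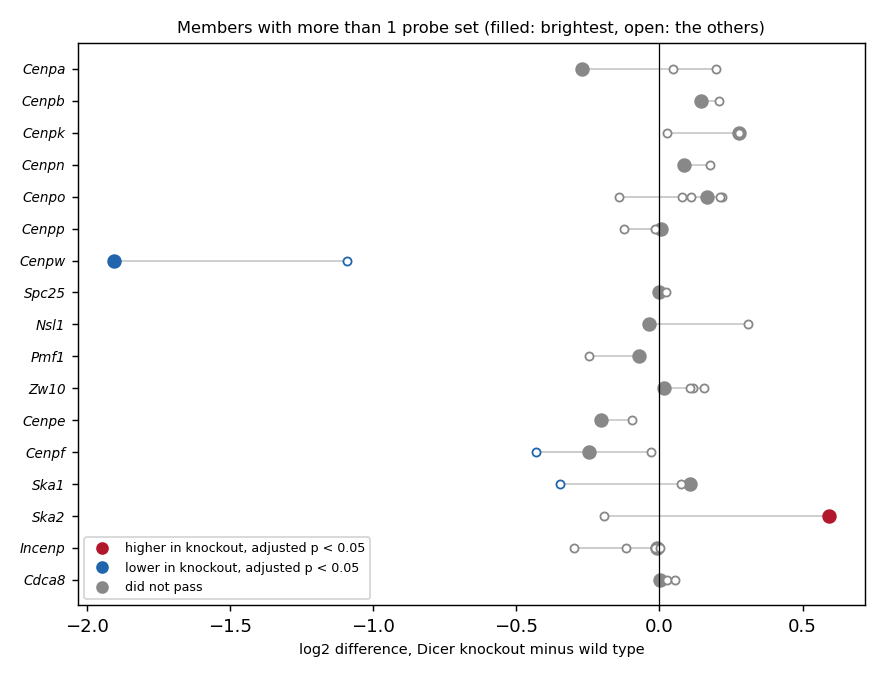
Log2 difference (knockout minus wild type) of every probe set of the 17 members that have more than 1, with the brightest filled and the others open; colours mark the threshold. The probe sets of Cenpw lie at -1.90 and -1.09, those of Ska2 on both sides of 0 at 0.59 and -0.19.

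Promoter sequence was compared for the members that fell or rose. RefSeq promoter windows of build GRCm38.p6, here the 250 bases before the annotated start, were matched by symbol for 30 of the 35 genes. Letters known from cell cycle promoters were searched on both strands: TTTGAA, the core of the cell cycle genes homology region (CHR) read by the DREAM complex; CCAAT, the box bound by NF-Y; and TTCCCGCC, an E2F site. The CHR letters were in 7 of 30 members (23.3%) and in 18.3% of 27025 genes, the CCAAT letters in 15 (50%) and in 37.5%, and the E2F letters in 3 (10%) and in 2.13%. Of the 9 members past the threshold that have a window, CHR letters were in Cenpw and Kntc1, CCAAT in Cenpw, Kntc1, Cenpm and Ska2, and E2F letters in Cenpc1 and Dsn1. These are 2 of the 7 members with CHR letters, 4 of the 15 with CCAAT and 2 of the 3 with E2F letters, and the rest did not pass. Whether the letters differ between members that passed and those that did not was not tested. The windows of Cenpm and Cenpc1, like those of Cenpj and Cenpt, lie wholly inside the annotated span of their gene (250 of 250 bases).

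The windows of Cenpw and Kntc1, which both fell, are shown because they share a run, and that of Ska2, which rose, because it holds the CCAAT letters at 5 places. They lie at chr10:30200541-30200790 (minus strand), chr5:123749476-123749725 (plus strand) and chr11:87109011-87109260 (plus strand). Of these bases, 63 of Cenpw, 34 of Kntc1 and 0 of Ska2 lie inside the annotated span of the gene. Each is written 5′ to 3′ on the strand of the gene, ending at the base before the start, with matches to the searched letters in capitals.
Cenpw: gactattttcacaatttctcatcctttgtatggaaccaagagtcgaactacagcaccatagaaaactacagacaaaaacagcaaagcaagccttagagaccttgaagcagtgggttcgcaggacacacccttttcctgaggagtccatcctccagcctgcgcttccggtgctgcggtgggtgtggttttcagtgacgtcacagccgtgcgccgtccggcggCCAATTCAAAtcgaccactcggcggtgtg
Kntc1: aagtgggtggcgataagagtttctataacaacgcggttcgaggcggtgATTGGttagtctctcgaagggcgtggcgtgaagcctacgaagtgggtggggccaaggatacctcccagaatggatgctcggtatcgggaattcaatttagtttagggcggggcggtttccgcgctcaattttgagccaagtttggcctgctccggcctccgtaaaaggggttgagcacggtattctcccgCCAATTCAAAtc
Ska2: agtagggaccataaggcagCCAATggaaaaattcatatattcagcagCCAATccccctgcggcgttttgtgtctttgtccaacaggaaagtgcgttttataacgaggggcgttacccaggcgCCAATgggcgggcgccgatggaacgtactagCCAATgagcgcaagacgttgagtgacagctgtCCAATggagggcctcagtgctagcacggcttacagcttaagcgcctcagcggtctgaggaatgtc

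In Cenpw and Kntc1 the CCAAT letters and the reverse complement of the CHR letters overlap by 1 base in the run CCAATTCAAA, which begins 29 bases before the start in Cenpw and 12 bases before it in Kntc1. In both genes it lies inside the annotated span, which covers the last 63 bases of the Cenpw window and the last 34 of the Kntc1 window. The run was picked after the windows had been seen. It is in 2 of the 30 members and in 19 of 27025 genes (0.0703%) on either strand. A match of letters is a description of the window, and whether any factor binds there was not measured.

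Of 33 measured genes of the kinetochore, centromere and microtubule attachment that are not members, 5 rose and 8 fell (39.4%, against 21% of all genes), with a median difference of -0.11. Knl1, the outer scaffold that docks the checkpoint kinase Bub1, rose most. It read 9.37, 9.49, 9.68 and 9.47 in wild type, against 10.50, 10.60, 10.57 and 10.44 in knockout, or 2.03-fold (adjusted p = 6.1e-05), and its second probe set rose by 1.06 (adjusted p = 0.00346). Kif2c, the centromeric microtubule depolymerase, rose by 0.38 ± 0.0652 (SE) and Bub1 by 0.30 ± 0.0681 (adjusted p = 0.00375 and 0.0164), though the mean of its probe sets did not pass.

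Among the genes that fell, those with the lowest p were Sgo2a, a guardian of centromeric cohesin (difference -0.85 ± 0.0927, SE), Top2a, which untangles DNA (-0.68 ± 0.0855), and Haspin, the kinase whose histone mark recruits the passenger complex (-0.77 ± 0.114, adjusted p = 0.00159). Named after their values were seen, as partners of members, Cenpu and Itgb3bp of the CENP-O group fell by 0.24 and 0.53 (adjusted p = 0.0322 and 0.00604). Of the 5 probe sets of Itgb3bp, 3 had a positive difference, though none of those passed, and the mean of all 5 gave -0.05 (adjusted p = 0.632). All but the brightest were dim, with genotype means of 3.87 to 4.87, below every array median (6.35 to 6.43). Of the aurora kinases of the passenger complex, Aurkc, the form of germ cells, read 12.95, 13.44, 12.52 and 13.15 in wild type, against 11.85, 12.26, 11.99 and 12.68 in knockout. Knockout array 4 lay above wild-type array 3, and the fall of 0.82 ± 0.218 (SE, adjusted p = 0.0307) did not pass without wild-type array 1, 2 or 4 or knockout array 1, 2 or 3. Aurkb differed by 0.07 (interval -0.10 to 0.24).

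**Figure D4:**
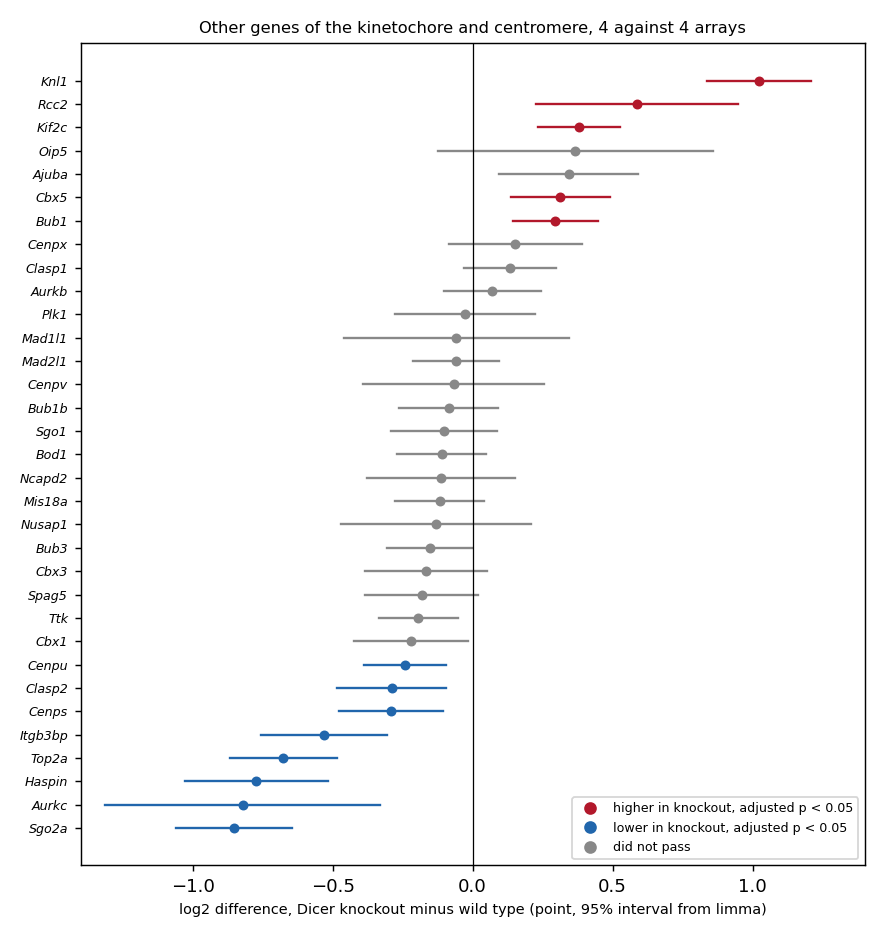
Log2 difference (knockout minus wild type) of the 33 other genes of the kinetochore and centromere with its 95% interval from limma. Knl1 is highest at 1.02 and Sgo2a lowest at -0.85.

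The remaining calls in that list were Cbx5 and Rcc2, which rose, and Cenps and Clasp2, which fell. Of the 13 calls, 6 ended when one or more single arrays were left out (Cenpu, Cenps, Aurkc, Clasp2, Cbx5 and Rcc2). With any 1 array left out, 4 or 5 genes of the list were lower, and 3 were higher when the array left out was wild-type array 4 or either of knockout arrays 1 and 4. Among the 35 members, 9 of 10 calls held whichever array was left out, the exception being Dsn1.

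As a sign of RNA quality, control probe sets at both transcript ends of actin and of Gapdh were compared. The 3′ end exceeded the 5′ end, in log2 units, by 2.32 ± 0.274 in wild type, against 2.14 ± 0.145 in knockout for actin, and 2.96 ± 0.0817 and 2.82 ± 0.152 for Gapdh (n = 4 and 4, SD). Exact two-sided permutation tests gave p = 0.257 and p = 0.143, both 0.257 after Benjamini-Hochberg adjustment over the pair of tests.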

How the data were processed

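The authors deposited RMA signals on a log2 scale, 1 per probe set and array. RMA and Partek are the tools listed in the submitters' processing notes, and their versions are not given in the sources used here. Differences at low signal tend to be compressed by RMA, so folds of dim genes are understated, and 2 rounds of amplification favour the 3′ ends of transcripts. Of 45101 probe sets, 64 controls were set aside, 34945 of the rest had 1 symbol in the platform annotation, and all 67 probe sets of the members matched the RefSeq gene table by gene ID. The probe set with the highest 8-array mean stood for its gene. The difference, knockout minus wild type, comes from lmFit and eBayes (limma 3.58.1, R 4.3.3), with p-values adjusted by Benjamini-Hochberg over 45037 probe sets. Intervals are 95% from that fit, and SE is its moderated error. Mice are separate samples in the labels, and 0 pairs of arrays were identical.

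Each member past the threshold, or with a difference of at least 0.5, is given array by array. Of the other kinetochore genes, the 3 with the lowest p in each direction are named. Members, lists and tests were chosen with earlier results of these data known. Among the markers, Npm2 and Cyp19a1 had no probe set with that symbol alone.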

Additional observations from a re-analysis of the deposited data

Results flagged for a closer look

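Single arrays far from the other 3 of their genotype were looked for in 140 sets of 4 values (68 genes and 2 end controls in 2 genotypes), taking the gap between an array and its neighbour as a share of the range. There were 11 such arrays, where chance gives about 1 in 20 sets. Wild-type array 1 was the odd one in 4 genes: low in Nuf2 (12.60, the others 12.76 to 12.79), and high in Kntc1 (10.93, the others 10.69 to 10.73), Cenpf (13.43, the others 13.20 to 13.23) and Cenpv (10.42, the others 9.97 to 10.05). Without that array, the differences of Nuf2, Kntc1, Cenpf and Cenpv were -0.17, -0.53, -0.19 and 0.03, against -0.13, -0.58, -0.24 and -0.07 with it. Wild-type array 2 was low in Cenpu (11.18, the others 11.26 to 11.27). Wild-type array 4 was high in Plk1 (12.51, the others 12.07 to 12.11) and Bod1 (13.80, the others 13.60 to 13.63). Among knockout arrays, array 1 was low in Itgb3bp (6.67, the others 6.82 to 6.84), array 3 low in Cenps (11.72, the others 11.98 to 12.02), and array 2 high in Aurkb (10.23, the others 10.02 to 10.05) and Bub1b (14.22, the others 14.03 to 14.05).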

How the results depend on the processing

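No called gene changed sign under the 18 alternatives run. With quantile scaling 9 of the 10 member calls held (Dsn1 missed, adjusted p = 0.0626), and with probe sets averaged per gene 9 held (Ska2 missed). Median centring, a filter on dim probe sets, other variance models, array weights, a random block for the first number of the title code, and leaving out shared-sequence suffixes kept all 10. Some settings also added calls. Averaged probe sets gave 2 members higher and 9 lower, where 9.15% of all genes were higher and 12.9% lower. A variance model with a mean-variance trend gave 4 higher and 9 lower, where the shares of all genes were 8.07% and 12.8%. Leaving out single arrays gave 3 to 4 members higher and 6 lower, and 3 to 5 and 4 to 5 of the other kinetochore genes, while the shares of all genes were 6.3% to 7.68% higher and 9.7% to 11.5% lower.

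The meaning of the title numbers is not stated. In the 4 arrays whose first number occurs in both genotypes, fitted with it as a replicate block, members higher and lower numbered 0 and 1 (Cenpw, -1.89), and other kinetochore genes 1 and 1, where 1.81% of all genes were higher and 1.91% lower. Members whose call ended there included Cenpc1 (-0.75), Cenpt (0.70) and Kntc1 (-0.67). Deviations from genotype means correlated at -0.28 and 0.12 in the pairs that share a number. Between wild-type and knockout arrays with unlike numbers they correlated at -0.27 to 0.26. So few pairs cannot decide whether the number marks a pairing, and the main fit did not use it. Wild-type arrays 3 and 4 also share a first number (28).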

Other observations

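In 2 further genes of the kinetochore, probe sets gave different readings. Sgo1, which protects cohesin at centromeres, read 12.16 ± 0.135 in wild type, against 12.06 ± 0.0696 in knockout on its brightest probe set (n = 4 and 4, SD, adjusted p = 0.487), while its dimmer one fell from 10.52 to 9.99, by 0.54 (adjusted p = 0.00117). For Bub1, a dimmer probe set ranged from 7.06 to 8.78 over wild-type arrays and from 7.51 to 9.54 over knockout arrays, far wider than the brightest one, whose arrays spanned 12.05 to 12.20 and 12.38 to 12.49.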
